A study of Homo sapiens with 6 samples.

Results

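Royan H5 (RH5), a human embryonic stem cell line, was compared between its naive and its primed state by sequencing of polyA RNA, with 2 naive libraries and 1 primed library among the 6 libraries of the series. Such lines are derived from an early embryo. The naive cells were at passage 17 and had been induced with a condition the labels call 2a2iL, then kept in 2iL medium and passaged with trypsin. The primed cells were at passage 16 in medium with bFGF, a fibroblast growth factor. Both were grown on inactivated mouse embryonic fibroblasts (MEF). State, medium and passage history changed together and cannot be told apart. The other 3 libraries, 2 naive and 1 primed, came from the line Royan H6 (RH6), at passage 10 for naive and 20 for primed cells. Genes were taken when they had at least 1 CPM (the count relative to the library's total) in at least 1 of the 3 RH5 libraries, which left 18516 of the 63677 genes counted.

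Naive pluripotency is the state of the epiblast before implantation, and primed pluripotency that of the epiblast after it. Naive human cells are known for transcription factors such as KLF17 and TFCP2L1, for the DNA methylation cofactor DNMT3L and for low DNA methylation. Primed cells are known for DNMT3B, ZIC2 and OTX2 and for dependence on FGF and activin or nodal signals. POU5F1, NANOG and SOX2 form the core of pluripotency in both.

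The 3 RH5 libraries held 14027552, 13496061 and 13457979 counts for naive 1, naive 2 and primed, and the other 3 held 14121645 to 14663982. The labels do not say that the naive duplicates were separate cultures, and the p-values below thus reflect library spread alone, possibly technical. Over the 18516 genes the duplicates differed by a median of 0.17 on the log2 scale, whereas naive and primed differed by a median of 0.44. The spread fell with level, from a median of 0.37 in 5785 genes that stayed under 5 CPM to 0.090 in 2688 genes that reached 100 CPM or more. Both naive libraries lay at least 2-fold above primed in 1774 genes and at least 2-fold below it in 1883, and the duplicates themselves lay 2-fold or more apart in 644.

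The question was which genes differ between the states in RH5, and edgeR's quasi-likelihood test called 6562 genes, or 35.4% of those tested, at an adjusted p under 0.05. The levels of all genes in both states are plotted. Of the 18516 genes, 3265 (17.6%) were higher and 3297 (17.8%) lower in naive cells. A change of 2-fold or more was called upward in 1745 genes (9.42%) and downward in 1892 (10.2%). The single primed library was assumed to vary like the naive duplicates. DESeq2 called 3951 genes, of which 3950 were called here too and in the same direction.

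**Figure D1:**
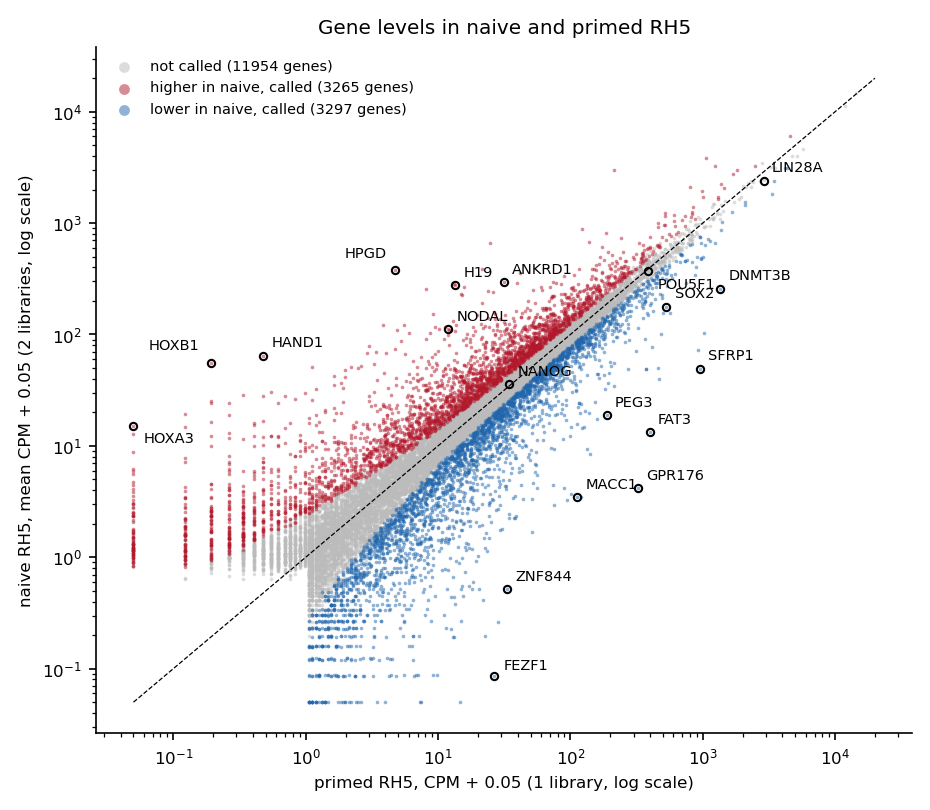
Mean CPM of the 2 naive RH5 libraries against CPM of the primed RH5 library, both plus 0.05 and on log axes, for 18516 genes; red and blue mark genes called higher (3265) and lower (3297) in naive cells, and black rings mark named genes. POU5F1, NANOG and LIN28A lie near the dashed line of equality, HPGD, HAND1 and HOXA3 above it and FEZF1 and ZNF844 below it.

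CPM printed below are scaled by edgeR's TMM factors. The largest changes named here are those of genes with 10 CPM or more in every library of the higher state. Several of the largest rises were genes of body axis and mesoderm patterning that primed cells barely held. HOXB1 (ENSG00000120094), a homeobox gene of the hindbrain, stood at 43.9 and 66.95 CPM in the naive libraries and at 0.143 CPM, or 2 counts, in primed cells. That is a ratio of 385, with a 95% counting interval of 106 to 3184. HOXA3 (ENSG00000105997), a homeobox gene of the pharyngeal region, had 221 and 192 counts in naive and 0 in primed cells, at least 69.5-fold higher against a floor of 3 counts over the group. RASSF9 (ENSG00000198774), of the RAS association domain family, had 13.1 and 12.6 CPM and no count in primed cells, at least 59.8-fold higher. These genes were picked for large rises, so the distance of both naive libraries to the primed one follows from the choice. The caudal homeobox gene CDX1 (ENSG00000113722) had 14.8 and 14.7 CPM against 1 count in primed cells, a ratio of 207 (36.9 to 8177). SOST, which encodes the Wnt antagonist sclerostin, had 24.6 and 25.5 CPM against 2 counts, a ratio of 175 (48.3 to 1448).

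HAND1 (ENSG00000113196), a transcription factor of heart mesoderm and trophoblast, had 66.5 and 62.7 CPM in naive cells and 0.429 CPM in primed cells (log2 fold change 7.204 ± 0.27 SE, adjusted p = 1.36e-07). HPGD (ENSG00000164120), which degrades prostaglandins, had 394 and 363 CPM against 4.65 CPM and rose by 6.34 ± 0.200 (adjusted p = 5.81e-08). In both genes the duplicates lay close together. As both are among the 20 largest rises, their distance to the primed library follows from the choice. The choline transporter gene SLC5A7 had 30.6 and 26.3 CPM against 0.286, and the apelin receptor gene APLNR 55.7 and 45.8 CPM against 1.07. The water channel gene AQP1 had 13.8 and 18.6 CPM against 2 counts, a ratio of 113 (95% counting interval 31.1 to 935). The guanine deaminase gene GDA had 26.8 and 21.8 CPM against 3 counts, a ratio of 113 (38.6 to 551). Among the others of the 20 largest rises, TTC29, HOXB2, NEURL1, ST8SIA6-AS1 and DNMT3L had log2 fold changes of 5.38 to 6.01. HOXC8, TBX22 and BCRP3 had 2 or 3 counts in primed cells, with ratios of 59.9 for BCRP3 to 88.5 for TBX22 (95% counting intervals 20.3 to 292 and 30.1 to 431). BCRP3 is a pseudogene of a multi-copy family, so its reads may come from related copies.

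The largest falls included genes of the forebrain. FEZF1 (ENSG00000128610), a zinc-finger gene of forebrain development, had 1 and 0 counts in naive cells and 26.3 CPM in primed cells, 727-fold lower with a 95% counting interval of 129.6 to 28783. The antisense gene beside it, FEZF1-AS1, had 0.0706 and 0.222 CPM against 22.5; the strand setting is not given in the sources used here, so reads of the pair cannot be told apart. SIX3, a homeobox gene of eye and forebrain, had 0.353 and 0 CPM against 12.4 (log2 fold change -6.03 ± 0.47, adjusted p = 8.81e-06). At higher levels, the orphan receptor gene GPR176 (ENSG00000166073) had 3.74 and 4.52 CPM against 323 (log2 fold change -6.29 ± 0.16, adjusted p = 2.59e-08). IDO1, which degrades tryptophan, had 3.46 and 3.41 CPM against 121. The MET regulator gene MACC1 had 3.53 and 3.26 CPM against 113. These genes were picked for large falls, so the place of both naive libraries far below the primed one follows from the choice. The other large falls included genes known from neurons, with the splicing factor gene NOVA2 (-5.88), the cell adhesion gene CNTN1 (-5.32), the endocytosis gene SH3GL2 (-6.401) and the sodium, potassium and calcium exchanger gene SLC24A2 (-5.23) on the log2 scale. The rest of the 20 were ZNF69, ZNF736, ZNF844, ZNF878, HMCN2, TRPC4, ZDHHC22, GNG4, MATK and MPPED2.

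The core pluripotency genes behaved unequally. POU5F1 (ENSG00000204531) had 342 and 406 CPM in naive and 383 CPM in primed cells, so the primed value lay between the duplicates. The fitted change, -0.034 ± 0.18 on the log2 scale, was not called (adjusted p = 0.904). NANOG had 36.6 and 35.1 CPM against 34.2 (adjusted p = 0.725), and LIN28A, an RNA-binding protein gene, 2519 and 2307 CPM against 2882 (adjusted p = 0.147). SOX2 fell, with 166 and 189 CPM against 532 (log2 fold change -1.58 ± 0.12, adjusted p = 8.57e-06). Over the list of general pluripotency genes, 14 of 19 were lower (73.7%) and 1 was higher (5.26%), with a median of -0.86. Over all genes tested, 17.8% were lower and 17.6% higher, with a median of 0.015. The lower genes included FOXD3 (-4.28), UTF1 (-2.66), TERT (-2.38), which encodes the telomerase enzyme, PRDM14 (-1.22) and ZFP42 (-1.13). The exception was GDF3, a TGFβ family ligand, with 43.2 and 37.8 CPM against 7.51.

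Markers of the naive state rose in part. Of 30 listed genes, 19 were tested, 12 were higher (63.2%) and 1 was lower (5.26%), with a median of 1.66. The shares over all genes tested were 17.6% and 17.8%. DNMT3L (ENSG00000142182), the cofactor of DNA methyltransferases, had 26.3 and 22.1 CPM in naive and 0.572 CPM in primed cells (log2 fold change 5.38 ± 0.34, adjusted p = 2.04e-06). TFAP2C, a transcription factor gene of trophoblast and naive cells, had 111 and 108 CPM against 35.6, and the surface marker gene SUSD2 18.9 and 20 CPM against 6.15. NLRP7 and NLRP2, genes of the oocyte and early embryo, rose by 4.09 and 4.56 on the log2 scale, and KLF2 by 2.73. Defining factors were less clear. TFCP2L1 had 9.32 and 9.48 CPM against 8.3 (adjusted p = 0.566) and KLF4 12.6 and 14.4 CPM against 18.5 (adjusted p = 0.067), so neither was called. KLF4 was called lower in naive cells with upper-quartile factors (adjusted p = 0.0324), with the replicate block (0.0184), in the RH5 libraries alone (0.0435) and without naive RH6 1 or 2 (0.0476 and 0.0464).

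KLF17 had 13 and 18 counts in naive and 0 in primed cells, at least 5.22-fold higher, and its call was lost with DESeq2 (adjusted p = 0.0705). DPPA3, a maternal factor gene, had 3.32 and 3.63 CPM against 1.22, and its call was lost with DESeq2 (adjusted p = 0.153) and limma-voom (0.0651). DPPA5 had 0 and 0 counts in naive and 1 count in primed cells, and it was among 11 listed genes under 1 CPM in every RH5 library. The exception in direction was ST6GAL1, a sialyltransferase gene, at -0.47 ± 0.13. Against the label naive, DNMT3L, TFAP2C and SUSD2 were higher, whereas DPPA5, KLF4 and TFCP2L1 were not.

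Markers of the primed state mostly fell, with 17 of 26 tested genes lower, 5 higher and a median of -0.92. DNMT3B (ENSG00000088305), the de novo DNA methyltransferase, had 251 and 263 CPM in naive and 1347 CPM in primed cells (log2 fold change -2.39 ± 0.104, adjusted p = 2.76e-07). FAT3, a cadherin gene, had 13.6 and 12.9 CPM against 397, and USP44, a deubiquitinase gene, 49.2 and 51.2 CPM against 458. The transcription factor gene OTX2 had 38.7 and 34.2 CPM against 192, and ZIC2 56.04 and 58.3 CPM against 201. All of these naive values lay below the primed one, which for FAT3 and USP44 follows from their choice by size of change. The 5 exceptions were CRABP1, which binds retinoic acid, at 1.77, NTS (1.53), VIM (1.45), the histone demethylase gene KDM6B (1.31) and CDH2 (0.46). CD24 was listed at 0 in all RH5 libraries. Among DNA methylation genes, 6 of 17 were higher (35.3%) and 3 lower (17.65%), beside 17.6% and 17.8% over all genes tested. Besides DNMT3L the demethylation enzyme gene TET1 rose by 0.63 and the imprint-protecting gene ZFP57 by 1.69, whereas DNMT3A (-0.45) and TET3 (-0.68) fell and DNMT1 was not called (0.18, adjusted p = 0.32). The ZFP57 call was lost with DESeq2 (adjusted p = 0.062).

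**Figure D2:**
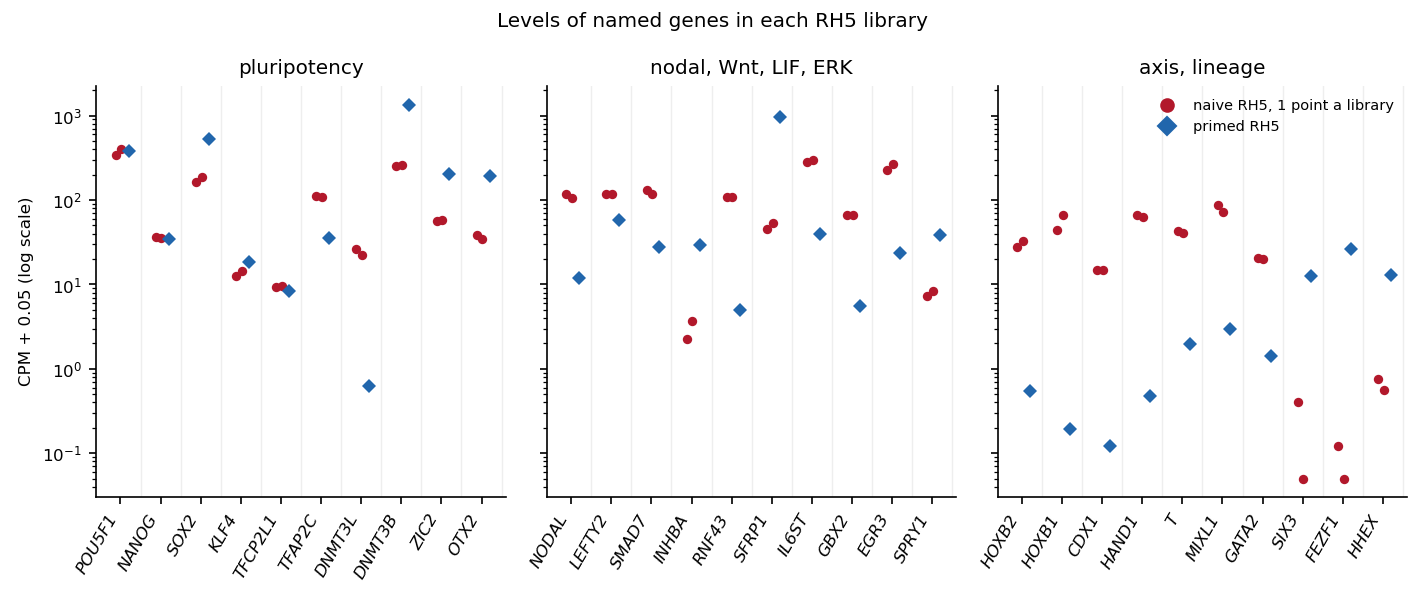
CPM plus 0.05, on a log axis, of 30 named genes in the 2 naive RH5 libraries (red circles) and the primed RH5 library (blue diamonds). The duplicates lie close together beside the distance to the primed library in most genes, and POU5F1, NANOG and TFCP2L1 show no clear distance.

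The title of the series names the TGFβ pathway, RARγ and NR5A2. Nodal and activin are ligands that activate SMAD2 and SMAD3, and LEFTY1, LEFTY2 and SMAD7 are inhibitors that the pathway itself induces. Of 36 tested genes of this pathway, 10 were higher (27.8%) and 10 lower (27.8%), with a median of 0.057. Over all genes tested, 17.6% were higher and 17.8% lower. The ligand gene NODAL (ENSG00000156574) had 117 and 107 CPM in naive and 11.9 CPM in primed cells (log2 fold change 3.23 ± 0.18, adjusted p = 9.49e-07). The activin and inhibin subunit genes moved the other way, with INHBA at 2.19 and 3.63 CPM against 29.4, INHBE at 3.32 and 2.96 CPM against 14.3 and INHBB at -2.53 on the log2 scale. The receptor genes ACVR2B (-0.75) and TGFBR2 (-1.499) and the nodal co-receptor gene TDGF1 (-1.02) were lower. ACVR2A was lower at -0.397, a call lost with DESeq2 (adjusted p = 0.266) and without either naive RH5 library (0.069 without naive 1 and 0.177 without naive 2).

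Among the signal transducers SMAD3 rose, with 69.03 and 68.6 CPM against 32.4, and the common partner SMAD4 fell, with 70.7 and 70.5 CPM against 148. SMAD2 was not called (-0.31, adjusted p = 0.0573). The inhibitor gene SMAD7 had 132 and 118 CPM against 27.98 (log2 fold change 2.16 ± 0.15, adjusted p = 3.32e-06). LEFTY1 had 36.1 and 34.1 CPM against 10.2, and LEFTY2 119 and 117 CPM against 58.5. PMEPA1, another feedback inhibitor gene, rose by 1.83, and LRRC32, which anchors latent TGFβ, by 3.38. The nodal antagonist gene CER1 fell, at -0.84 ± 0.18, and LTBP4 was lower (-1.14).

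In the bone morphogenetic protein (BMP) branch, 7 of 24 genes were higher (29.2%) and 3 lower (12.5%), with a median of 0.062. The shares over all genes tested were 17.6% and 17.8%. The ligand gene BMP4 had 46.4 and 41.1 CPM in naive and 6.94 CPM in primed cells, whereas BMP2 had 30.5 and 33.3 CPM against 109.9. The target genes MSX1 (5.29), GATA2 (3.88) and MSX2 (2.68) were higher, the antagonist gene GREM1 (-2.11) and ID4 (-0.46) were lower, and the common target genes ID1 (-0.057, adjusted p = 0.746) and ID3 (-0.29, adjusted p = 0.165) were not called.

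RARG, the gene of the retinoic acid receptor γ, fell in naive cells, with 17.4 and 16.1 CPM against 32.1 (log2 fold change -0.93 ± 0.16, adjusted p = 0.0014). NR5A2 (ENSG00000116833), a nuclear receptor gene, had 21.95 and 21.5 CPM against 15.9 and was called at 0.45 ± 0.14 (adjusted p = 0.0344). This call did not hold with DESeq2 (adjusted p = 0.219) and without either naive RH5 library (0.104 without naive 1 and 0.074 without naive 2). RARA was not called, with 10.8 and 7.33 CPM against 10.8. Of 23 tested genes of retinoic acid handling and response, 11 were higher (47.8%) and 5 lower (21.7%), beside 17.6% and 17.8% over all genes tested. Among the higher members were CRABP2 (1.74), TGM2 (2.45) and MEIS2 (1.99). NR0B1 (2.95), a nuclear receptor gene on chromosome X, was higher too, but its call was lost with DESeq2 (adjusted p = 0.0583). The enzyme gene CYP26A1, which degrades retinoic acid, had 23.6 and 21.1 CPM against 114, and its log2 fold change was -2.35 ± 0.12 (adjusted p = 5.50e-07). ALDH1A1, ALDH1A2 and DHRS3 were the other lower members, each a call lost with DESeq2 (adjusted p = 0.131, 0.251 and 0.21). Each call was also lost without naive 1, where the log2 fold changes were -1.93, -1.19 and -0.41. That of ALDH1A2 was lost with limma-voom (adjusted p = 0.0527) and in the RH5 libraries alone as well.

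In Wnt signalling, β-catenin acts with TCF and LEF factors on DNA. Of 24 targets and feedback genes, 15 were higher (62.5%) and 6 lower (25%), with a median of 1.35. The shares over all genes tested were 17.6% and 17.8%. The feedback ubiquitin ligase gene RNF43 (ENSG00000108375) had 109 and 108 CPM in naive and 4.87 CPM in primed cells (log2 fold change 4.48 ± 0.17, adjusted p = 1.41e-07). SP5 had 153 and 156 CPM against 9.09, and AXIN2 201 and 184 CPM against 54.2. NOTUM, a Wnt deacylase gene, rose by 3.08 and NKD1 by 2.88. CDX2 had 7.13 and 6.52 CPM against 3 counts, a ratio of 31.8 (95% counting interval 10.7 to 156). The 6 lower genes were SFRP1, FRZB (-2.21), FZD8 (-2.17), LGR5 (-1.003), SFRP2 (-0.83) and DKK4. SFRP1 fell from 956 CPM in primed cells to 45.8 and 52.7 CPM in the naive libraries. DKK4 had 1 and 1 counts in naive and 21 in primed cells. The LGR5 call was lost with DESeq2 (adjusted p = 0.13).

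The promoters of the tested genes of this list, whatever their direction, were read for the TCF and LEF motif. Several are textbook targets of these factors. The 250 bases before each start were taken from RefSeq (GRCh38.p14), and both strands were searched for the motif CTTTGAA and for its variant with another last base, CTTTGAT. On the opposite strand the former reads TTCAAAG and the latter reads ATCAAAG. Of the 24 tested genes, 15 had a promoter in the RefSeq table, and 5 of these held the motif at a listed start: SP5, DKK1, CDX2, T and MIXL1, all higher in naive cells. That is 26.3% of their 19 promoters, beside 5.94% of all 35116 promoters of this length. Of the 15 genes, FZD8, SFRP2 and FRZB were lower, NKD2 was not called, and all others were higher, with or without the motif. A match is only a run of letters, and binding was not measured. In the 4 sequences below, 5′ to 3′ on the gene's strand, capitals mark the motif.
SP5, chr2:170715087-170715336, plus strand: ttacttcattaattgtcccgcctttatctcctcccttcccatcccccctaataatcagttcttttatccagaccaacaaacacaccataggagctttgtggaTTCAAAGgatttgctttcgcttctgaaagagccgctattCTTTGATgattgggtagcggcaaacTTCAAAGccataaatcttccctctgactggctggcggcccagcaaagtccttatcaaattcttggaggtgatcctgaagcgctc
MIXL1, chr1:226223414-226223663, plus strand: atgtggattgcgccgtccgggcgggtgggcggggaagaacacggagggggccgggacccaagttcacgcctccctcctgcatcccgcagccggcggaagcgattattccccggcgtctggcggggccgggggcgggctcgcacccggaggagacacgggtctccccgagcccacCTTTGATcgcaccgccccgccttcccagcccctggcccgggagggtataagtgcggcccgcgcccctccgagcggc
CDX2, chr13:27969316-27969565, minus strand: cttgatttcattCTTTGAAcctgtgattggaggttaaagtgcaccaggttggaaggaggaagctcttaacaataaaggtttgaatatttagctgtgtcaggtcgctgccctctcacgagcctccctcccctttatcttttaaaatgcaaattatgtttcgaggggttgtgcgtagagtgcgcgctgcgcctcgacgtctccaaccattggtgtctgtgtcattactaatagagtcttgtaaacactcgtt
T, chr6:166167852-166168101, minus strand: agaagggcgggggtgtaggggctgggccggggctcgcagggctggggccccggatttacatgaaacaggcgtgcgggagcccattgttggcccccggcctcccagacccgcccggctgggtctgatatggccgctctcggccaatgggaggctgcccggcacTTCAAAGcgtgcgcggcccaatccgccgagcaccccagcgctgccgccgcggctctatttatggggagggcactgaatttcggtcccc
SP5 held 3 matches and the other promoters shown 1 each. RNF43 held none at its 2 listed starts.

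Response genes of the ERK kinases split by gene. The list had 16 of 24 genes higher (66.7%) and 6 lower (25%), with a median of 0.81. The shares over all genes tested were 17.6% and 17.8%. The immediate early gene EGR3 had 229.7 and 265 CPM in naive and 23.8 CPM in primed cells, IER3 142 and 138 against 23.9, and the ephrin receptor gene EPHA2 108 and 94.95 against 26.9. The feedback inhibitor genes SPRY1 (-2.296 ± 0.15), DUSP6 (-0.84 ± 0.14) and DUSP4 (-0.65 ± 0.15) were lower, as were ETV1 (-1.85), EPHA4 (-0.904) and SPRED1 (-0.43), but SPRY2 (1.405), SPRY4 (0.702), DUSP5 (1.11) and ETV5 (1.03) were higher. The DUSP4 call was lost with DESeq2 (adjusted p = 0.0541). The FGF ligand gene FGF4 had 12.4 and 7.48 CPM against 0.572, and FGF8 rose by 3.44, whereas FGF2 (-0.99) and the receptor genes FGFR1 (-0.62) and FGFR2 (-0.65) fell.

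In the pathway of leukemia inhibitory factor (LIF), which signals through IL6ST to STAT3, 7 of 20 genes were higher (35%) and 2 lower (10%). The shares over all genes tested were 17.6% and 17.8%. The shared receptor gene IL6ST (ENSG00000134352) had 284 and 295 CPM in naive and 39.6 CPM in primed cells (log2 fold change 2.87 ± 0.15, adjusted p = 7.83e-07). The LIF-specific receptor gene LIFR was not called (-0.16, adjusted p = 0.458). The feedback gene SOCS3 had 55.3 and 56.2 CPM against 16.7, and STAT3 rose by 0.42, a call lost with DESeq2 (adjusted p = 0.0711) and without naive 1 (0.0593). GBX2, a homeobox gene that LIF induces in mouse stem cells, had 66.1 and 66.5 CPM against 5.58. SOCS2 (-1.38) and MUC1 (-1.33) were the lower members, and the MUC1 call was lost with DESeq2 (adjusted p = 0.192) and without naive 2 (0.12).

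HOX genes rose in naive RH5 cells. The 39 human HOX genes lie in the clusters HOXA to HOXD and set position along the body axis. Of these, 20 passed 1 CPM in a library. Of the 20, 18 were higher (90%) and none was lower, beside 17.6% and 17.8% over all genes tested. The median log2 fold change was 4.40, or 4.199 with genes at 0 in primed cells set to their lower bounds. A further 19 stayed under 1 CPM in all RH5 libraries, and members that passed only through the naive libraries had to be higher there. By cluster, 6 of 6 tested HOXA, 9 of 10 HOXB and 3 of 3 HOXC genes were higher, and the single HOXD gene tested, HOXD13, was not called. HOXB2 had 27.8 and 32.4 CPM in naive and 0.501 CPM in primed cells. HOXB3 had 203 and 195 counts against 9, and HOXC6 had 74 and 51 against 3, a ratio of 21.04 (95% counting interval 7.04 to 103). In the order of genes on chromosome 17, 9 neighbours from HOXB1 to HOXB8 were each called at least 2-fold higher, with the HOXB8 call lost with DESeq2 (adjusted p = 0.122). On chromosome 7 the run held 10 genes, from SKAP2 over the HOXA genes to EVX1. The antisense genes within these runs share their place with HOX genes, so their reads cannot be told apart without the strand setting.

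Markers of other cell types were read for what the cultures may hold. In bulk RNA, more cells of a type and more RNA per cell cannot be told apart. In the lists below, genes that passed 1 CPM through 1 state alone could only be higher in that state. Genes of the primitive streak and mesoderm, the first layer to form at gastrulation, had a median of 2.74. Of 18 tested, 11 were higher (61.1%) and 2 lower (11.1%), beside 17.6% and 17.8% over all genes tested. The streak gene T, also named TBXT, had 42.6 and 40.6 CPM in naive and 1.93 CPM in primed cells (log2 fold change 4.42 ± 0.22, adjusted p = 5.87e-07). MIXL1 had 86.3 and 72.1 CPM against 2.93, and EOMES rose by 1.11. EVX1 had 49 and 28 counts against 1, a ratio of 38.9 (95% counting interval 6.77 to 1555). KDR (-1.25) and LHX1 (-2.18) fell. Of the defining mesoderm genes, MESP1 stayed under 1 CPM in all RH5 libraries and TBX6 was not called. Summed over the 18 genes the level was 672 and 621 CPM in naive and 330.4 CPM in primed cells.

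Of 27 tested genes of trophoblast and amnion, 16 were higher (59.3%) and 2 lower (7.41%), beside 17.6% and 17.8% over all genes tested. Their median was 1.49, and their summed level was 3241 and 3124 CPM against 1318. GATA2 had 20.4 and 19.8 CPM against 1.36, and TFAP2A, an ectoderm and trophoblast factor gene, 76.7 and 78.2 CPM against 17.7. The keratin genes KRT8 (1.403) and KRT18 (1.36) rose. GATA3 was not called (0.49, adjusted p = 0.0917), the trophoblast genes ELF5 and VGLL1 stayed under 1 CPM, and IGFBP3 (-2.602) and KRT7 (-1.02) were lower, the latter lost with DESeq2 (adjusted p = 0.167). Their part in the rises of HAND1, CDX2 and TFAP2C, which stand in the same list, was not tested.

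Of 15 tested endoderm genes 12 were lower (80%) and 2 higher (13.3%), with a median of -2.38. Over all genes tested the shares were 17.8% and 17.6%. The transcription factor gene HHEX had 0.706 and 0.518 CPM in naive and 12.9 CPM in primed cells, and the chemokine receptor gene CXCR4 2.54 and 2.74 CPM against 28.3. SOX17 had 0.847 and 0.296 CPM against 7.44, and FOXA2 fell by 1.84. HHEX and SOX17 passed 1 CPM only through the primed library, so they could only be lower. GATA4 (0.71) and PRDM1 (1.36) were the exceptions, and the GATA4 call was lost with DESeq2 (adjusted p = 0.0852) and without naive 1 (0.0816).

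Among 21 tested neural genes 11 were lower (52.4%) and 7 higher (33.3%), with a median of -1.10. Over all genes tested, 17.8% were lower and 17.6% higher. The lower genes included those of the forebrain and eye, with OTX1 (-3.81), PAX6 (-3.08) and EMX2 (-2.89) beside SIX3, and RAX at 1 and 0 counts in naive and 23 in primed cells, 45.5-fold lower (95% counting interval 7.396 to 1876). SIX3 and RAX passed 1 CPM only through the primed library, so they could only be lower. The long noncoding RNA gene RMST had 3.32 and 3.11 CPM in naive and 94.2 CPM in primed cells. The higher genes included STMN2 (3.35), DLX2 (3.33), SOX3 (1.43), PAX3 (1.24), MAP2 (1.24) and NES (1.002, lost with DESeq2 at an adjusted p of 0.0744).

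Feeder cells are fibroblasts, so fibroblast genes were counted too: 12 of 25 were higher (48%) and 2 lower (8%), with a median of 0.89. The shares over all genes tested were 17.6% and 17.8%. COL3A1, a fibrillar collagen gene, had 80.96 and 92.4 CPM in naive and 5.22 CPM in primed cells, ACTA2 26.8 and 22.7 against 1.86 and LUM 10.1 and 12.2 against 0.859. COL1A1 was not called (-0.35, adjusted p = 0.12), DCN and FAP stayed under 1 CPM, and THY1 fell by 2.06. The summed level of the 25 genes was 2074 and 2041 CPM against 1531. Whether reads of the mouse feeders reached the human genes was not tested. In genes of the switch between epithelial and mesenchymal states, 10 of 26 were higher (38.5%) and 11 lower (42.3%). All 10 higher genes are on the mesenchymal side, such as ZEB1 with 47.99 and 48.9 CPM against 1.93 and SNAI2 with 54.8 and 47.1 against 2.15. The 11 lower genes are epithelial, such as CLDN3 (-3.58), MARVELD3 (-3.45), GRHL2 (-2.31) and CDH1 (-1.06 ± 0.13, adjusted p = 1.66e-04).

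**Figure D3:**
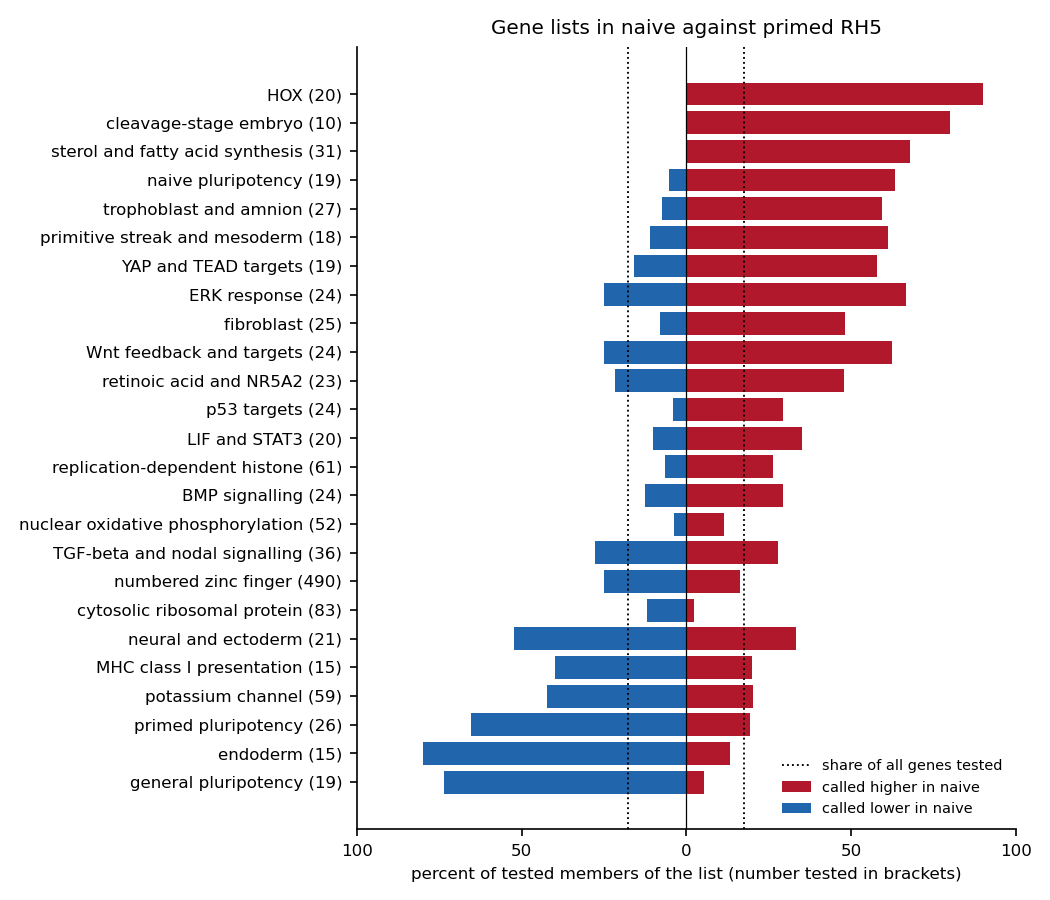
Percent of the tested members of 25 gene lists called higher (red, right) and lower (blue, left) in naive RH5 cells, with the number tested in brackets. Dotted lines mark the shares over all genes tested, 17.6% higher and 17.8% lower.

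Genes of the cleavage-stage embryo, which are active around the first activation of the human genome, appeared in naive RH5 cells at low counts. Of 19 listed genes 10 were tested, 8 were higher (80%) and none was lower, beside 17.6% and 17.8% over all genes tested. Of the 8, 7 had no count in primed cells and passed 1 CPM only through the naive libraries, so they could only be higher. TRIM43 had 69 and 60 counts in the naive libraries and 0 in primed cells, at least 21.7-fold higher. TRIM49 had 55 and 51 counts against 0, at least 17.8-fold higher, and KDM4E, a histone demethylase gene, had 55 and 43 against 0, at least 16.5-fold higher. ZSCAN4, a marker of this stage, had 19 and 11 counts against 0, at least 5.05-fold higher. CCNA1, a cyclin gene, had 222 and 227 counts against 17 (log2 fold change 3.73 ± 0.37, adjusted p = 4.31e-05). LEUTX (8 and 3 counts), RFPL4B (4 and 6) and DUXA (1 and 4) were below the filter and at 0 in primed cells, and DUX4 was at 0 in all RH5 libraries. TRIM43, TRIM43B, TRIM49 and PRAMEF1 belong to families of near-identical copies, so their counts are uncertain. With DESeq2 the calls of ZSCAN4, PRAMEF1, TRIM43B and KLF17 were lost (adjusted p = 0.0769, 0.0942, 0.524 and 0.0705). In the RH6 libraries TRIM43 had 0, 0 and 0 counts and KDM4E 0, 0 and 0 for naive 1, naive 2 and primed.

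A group of neighbouring zinc-finger genes on chromosome 19 was low in naive RH5 cells. KRAB zinc-finger genes, which stand in clusters on this chromosome, encode DNA-binding repressors, many of them directed at retrotransposons. ZNF844 (ENSG00000223547) had 0.565 and 0.3703 CPM in the naive libraries and 32.9 CPM in primed cells (log2 fold change -6.104 ± 0.23, adjusted p = 1.41e-07). ZNF69 had 0.353 and 0.0741 CPM against 28.3, ZNF878 0.565 and 0.222 against 13.2 and ZNF433 0.0706 and 0.148 against 6.297. ZNF439 had 0 and 1 counts against 98, 194-fold lower with a 95% counting interval of 34.03 to 7743. In RefSeq order, 8 tested neighbours, ZNF439, ZNF69, ZNF700, ZNF433, ZNF878, ZNF844, RSL24D1P8 and ZNF625, were each called at least 2-fold lower, with a median of -5.39. The ZNF625 call was lost with DESeq2 (adjusted p = 0.0784). On either side ZNF440 (-0.33, adjusted p = 0.287) and ZNF136 (0.16, adjusted p = 0.425) were not called. Beyond them ZNF441 (-1.77, adjusted p = 0.00121), ZNF44 (-1.86, adjusted p = 3.03e-05) and ZNF442 (-1.06, adjusted p = 0.0308) were also called at least 2-fold lower, so lower genes were not confined to the run of 8. The ZNF442 call was lost with DESeq2 (adjusted p = 0.216) and without naive 1 (0.142), and the difference between the lines was called for ZNF441 and ZNF44 (adjusted p = 0.0109 and 0.00147).

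**Figure D4:**
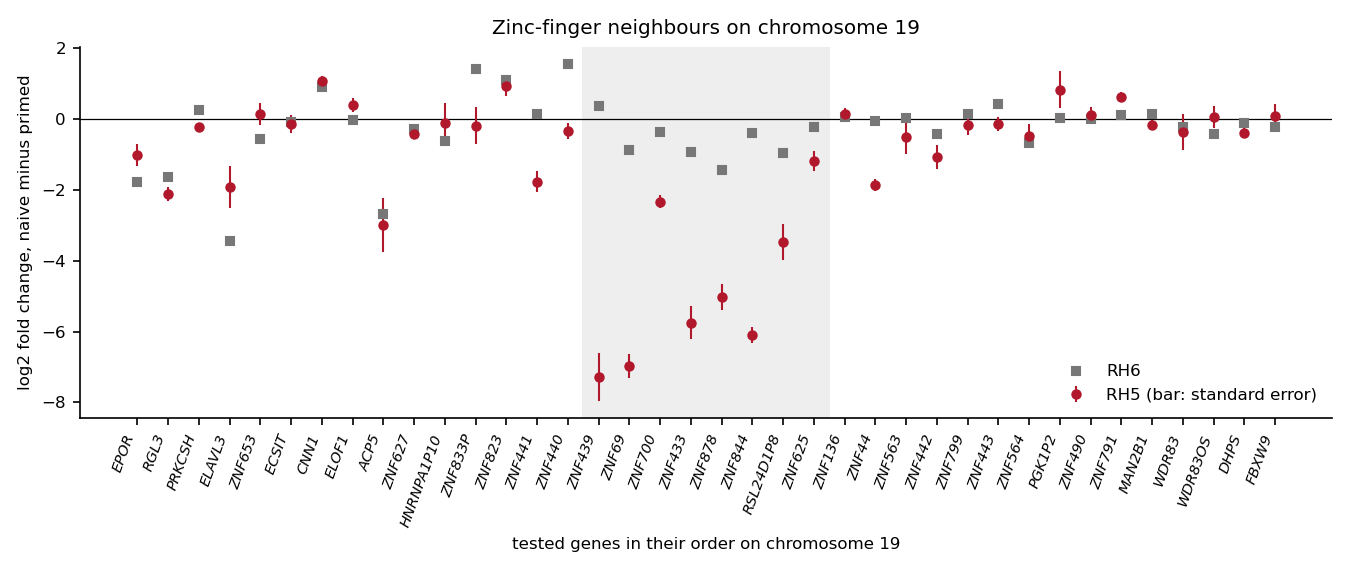
Log2 fold change between naive and primed cells of 38 tested genes in their order on chromosome 19, in RH5 (red, with the standard error) and RH6 (grey squares); the shaded part holds the 8 neighbours called at least 2-fold lower in RH5. Inside it the RH5 values run from -7.28 to -1.18 and the RH6 values from -1.42 to 0.39.

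In RH6 the same 8 genes had a median of -0.62, and the difference between the lines was called for 7 of them. In naive RH6 cells ZNF844 had 23.6 and 25.1 CPM and in primed RH6 cells 31.9 CPM, so for this gene the naive RH5 libraries were the low ones. ZNF439 had 2.03 and 1.27 CPM in naive and 1.27 CPM in primed RH6 cells. With 7.01 CPM, primed RH5 was the highest library for ZNF439. Of 490 zinc-finger genes named by a ZNF number, 79 were higher (16.1%) and 123 lower (25.1%), beside 17.6% and 17.8% over all genes tested. Elsewhere ZNF736 on chromosome 7 had 0.212 and 0.0741 CPM against 13.1, and ZNF560 on chromosome 19 had 0 and 1 counts against 137, 271-fold lower with a 95% counting interval of 47.9 to 10793.

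The promoters of 2 of the low genes and of the 2 uncalled genes on either side are shown, 250 bases before the start from RefSeq (GRCh38.p14), with every CG dinucleotide in capitals. CG is the site of DNA methylation, which was not measured here.
ZNF69, chr19:11887532-11887781, plus strand: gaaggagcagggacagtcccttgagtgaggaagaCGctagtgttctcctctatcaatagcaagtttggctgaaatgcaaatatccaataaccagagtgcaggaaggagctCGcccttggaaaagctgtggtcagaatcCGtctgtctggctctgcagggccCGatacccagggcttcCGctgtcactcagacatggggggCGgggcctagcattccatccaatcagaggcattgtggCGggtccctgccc
ZNF844, chr19:12064481-12064730, plus strand: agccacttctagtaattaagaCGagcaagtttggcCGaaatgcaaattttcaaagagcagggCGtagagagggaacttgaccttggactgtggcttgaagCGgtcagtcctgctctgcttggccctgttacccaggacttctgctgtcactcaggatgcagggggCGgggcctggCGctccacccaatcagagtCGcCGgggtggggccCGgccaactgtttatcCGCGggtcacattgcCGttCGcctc
ZNF440, chr19:11814023-11814272, plus strand: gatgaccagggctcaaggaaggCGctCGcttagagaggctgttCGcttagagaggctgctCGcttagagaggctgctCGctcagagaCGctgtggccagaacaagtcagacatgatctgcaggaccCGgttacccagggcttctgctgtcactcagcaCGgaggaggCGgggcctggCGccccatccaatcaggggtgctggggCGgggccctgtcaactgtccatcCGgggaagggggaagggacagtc
ZNF136, chr19:12162846-12163095, plus strand: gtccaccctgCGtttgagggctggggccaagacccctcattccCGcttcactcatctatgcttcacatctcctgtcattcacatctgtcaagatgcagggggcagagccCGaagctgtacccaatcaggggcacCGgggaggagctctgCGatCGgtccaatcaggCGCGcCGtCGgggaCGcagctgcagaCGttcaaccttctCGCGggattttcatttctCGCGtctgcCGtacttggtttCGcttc
These promoters held 7, 13, 12 and 18 CG in that order, and all promoters a median of 11, with 93.9% of them holding at least 1. The other low genes with a promoter in the table held 8 to 18 CG.

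Many genes of chromosome X were higher in naive RH5 cells. Of 569 tested genes matched to chromosome X, 321 (56.4%) were called higher and 40 (7.03%) lower, beside 17.1% higher and 19.7% lower of 13735 autosomal genes. The median log2 fold change was 0.76 on X, with quartiles of 0.26 and 1.27, and each autosome had a median between -0.11 and 0.079. The share of matched counts that fell on X was 5.399% and 5.392% in the naive RH5 libraries, 3.35% in primed RH5 and 2.92% to 3.22% in the 3 RH6 libraries. In RH6 the median on X was 0.014. The state effect differed between the lines for 240 of the 569 X genes (42.2%), beside 13.1% of the autosomal genes. Among the 10 X genes with the most counts, FLNA, an actin crosslinker gene, had 3313 and 3211 CPM in naive and 1233 CPM in primed RH5 cells (log2 fold change 1.404 ± 0.11, adjusted p = 1.15e-05). ATRX, a chromatin remodeller gene, had 944 and 1081 CPM against 459, and HUWE1, a ubiquitin ligase gene, 2027 and 1883 against 990.2. USP9X was the exception among the 10, with 1582 and 1525 CPM against 2092, and its call was lost without naive 2 (adjusted p = 0.0714).

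**Figure D5:**
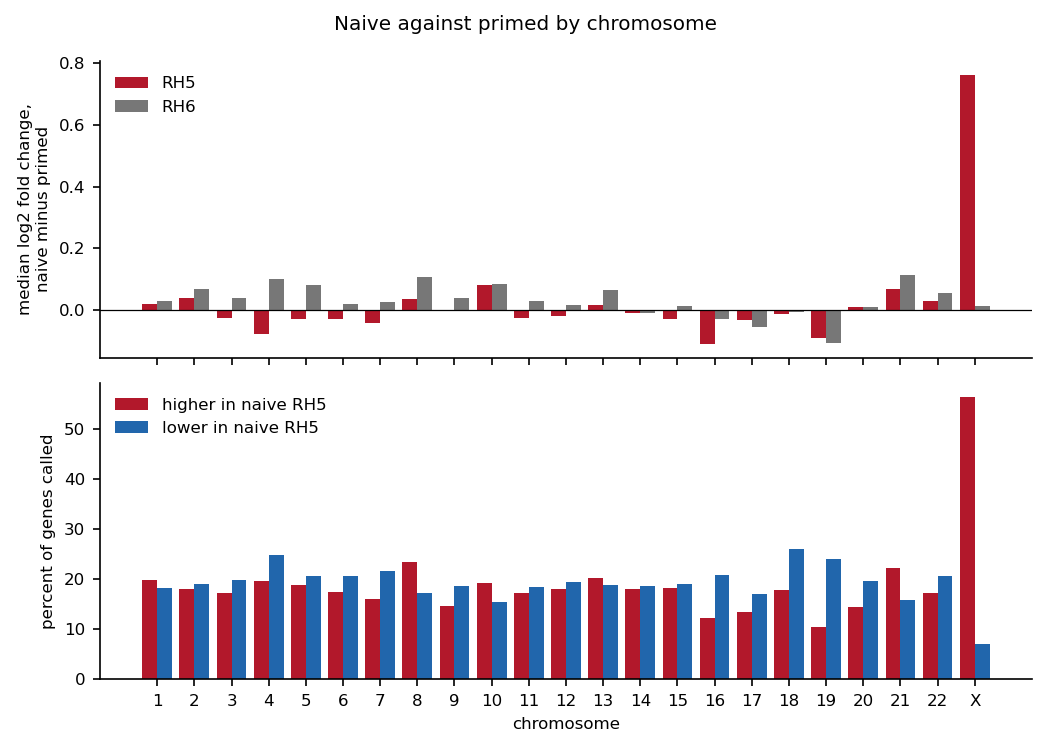
Top, median log2 fold change between naive and primed cells of the genes of each chromosome in RH5 (red) and RH6 (grey); bottom, percent of each chromosome's genes called higher (red) and lower (blue) in naive RH5. Chromosome X reaches a median of 0.76 and 56.4% higher in RH5.

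Imprinted genes, which are read from 1 parental copy, moved in both directions, with 10 of 26 higher (38.5%) and 6 lower (23.1%). Over all genes tested, 17.6% were higher and 17.8% lower. H19 (ENSG00000130600), a noncoding RNA gene, had 283 and 273 CPM in naive and 13.4 CPM in primed cells (log2 fold change 4.38 ± 0.19, adjusted p = 2.76e-07). Its neighbour IGF2, a growth factor gene, had 75.9 and 131 CPM against 8.66, with the duplicates further apart than for H19. MEG3 had 824 and 778 CPM against 558. PEG3, a zinc-finger gene read from the paternal copy, fell from 188 CPM to 18.4 and 19.1 CPM (log2 fold change -3.33 ± 0.13, adjusted p = 1.41e-07). SNRPN (-1.19), SNURF (-1.13), NNAT (-1.52), GRB10 (-0.38) and ZDBF2 (-0.33) were also lower, and the GRB10 and ZDBF2 calls were lost with DESeq2 (adjusted p = 0.0823 and 0.0906). Without naive 2 the GRB10 call was lost (0.121), and the ZDBF2 call was lost without naive 1 (0.0691) or naive 2 (0.192).

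Genes of sterol and fatty acid synthesis rose in 21 of 31 cases (67.7%) and none fell, with a median of 0.65. The shares over all genes tested were 17.6% higher and 17.8% lower. The regulator gene INSIG1 had 111 and 120.4 CPM in naive and 37.4 CPM in primed cells. Targets of YAP and TEAD, which respond to cell shape and density, were higher in 11 of 19 (57.9%) and lower in 3 (15.8%). ANKRD1 had 294 and 296 CPM against 31.2, and CTGF 597 and 617 against 174. YAP1 itself was not called (0.062, adjusted p = 0.72).

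Nuclear genes of oxidative phosphorylation were mostly not called, with 6 of 52 higher (11.5%) and 2 lower (3.85%). Both shares lay under the 17.6% and 17.8% over all genes tested. Glycolysis and hypoxia genes, with 6 higher (22.2%) and 5 lower (18.5%) of 27, were near the shares over all genes. Of the p53 targets 7 of 24 were higher (29.2%) and 1 lower (4.17%), with CDKN1A, a cell cycle inhibitor gene, at 35.1 and 38.1 CPM against 16.03. Cell cycle genes were lower in 12 of 36 (33.3%) and higher in 6 (16.7%). The lower ones included the replication helicase subunit genes MCM2 (-0.62), MCM3 (-0.396), MCM5 (-0.73), MCM6 (-0.42) and MCM7 (-0.54). Without naive 2 the MCM3 and MCM6 calls were lost (adjusted p = 0.151 and 0.129), and that of MCM6 also with DESeq2 (0.0598). Cytosolic ribosomal protein genes showed 10 of 83 lower (12.05%) and 2 higher (2.41%), both under the 17.8% and 17.6% over all genes tested. The 2 higher were RPL10 (0.798) and RPS4X (0.73), both on chromosome X.

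Antigen presentation genes of MHC class I were lower in 6 of 15 (40%) and higher in 3 (20%). The immunoproteasome gene PSMB8 had 0.141 and 0.296 CPM in naive and 5.51 CPM in primed cells, and the peptide transporter gene TAP2 1.41 and 2.296 against 13.02, whereas B2M was not called (-0.0074, adjusted p = 0.973). Class I genes are near-identical in parts, so their counts are uncertain. Interferon response genes were lower in 5 of 19 (26.3%) and higher in 3 (15.8%), beside 17.8% and 17.6% over all genes tested, and their median of -0.42 became 0.15 with the 5 CPM filter. BST2 was lower at 51.9 and 52.6 CPM against 171 and IFITM1 was higher at 39.9 and 59.5 against 11.2. Potassium channel genes were lower in 25 of 59 (42.4%) and higher in 12 (20.3%), with KCNG3 at 4.31 and 4.52 CPM against 74.3. The endogenous retrovirus gene ERVH48-1 stood at 125 and 120.4 CPM against 5.44 and ABHD12B at 228 and 229.6 against 14.9.

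Further neighbours moved together elsewhere. On chromosome 4, RASSF6 and the chemokine genes CXCL6, CXCL1, CXCL5 and CXCL3 followed each other and were each at least 2-fold lower, with a median of -3.48 in RH5 and -1.48 in RH6. CXCL5, a ligand that attracts neutrophils, had 1.91 and 1.93 CPM in naive and 21.5 CPM in primed cells, and CXCL6 had 0 and 0 counts against 30, at least 19.8-fold lower. The RASSF6 and CXCL1 calls were lost with DESeq2 (adjusted p = 0.276 and 0.33) and without naive 1 (0.0766 and 0.11). A second run on chromosome 4 held DGKQ, SLC26A1, IDUA, FGFRL1, RNF212 and TMED11P, with FGFRL1, an FGF receptor-like gene, at 7.62 and 7.33 CPM against 49.4. The SLC26A1 and TMED11P calls were lost with DESeq2 (adjusted p = 0.123 and 0.722), and that of TMED11P also without naive 2 (0.091).

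Matrix and guidance genes divided by member. Of 41 collagen genes 14 were higher (34.15%) and 13 lower (31.7%), beside 17.6% and 17.8% over all genes tested. COL2A1, of cartilage, had 97.4 and 86.2 CPM in naive and 8.09 CPM in primed cells, and COL14A1 2.26 and 3.48 against 24.3. Semaphorin, ephrin and slit genes were higher in 19 of 53 (35.85%) and lower in 19 (35.85%). The X-linked ephrin gene EFNB1 had 113 and 119 CPM against 9.37, and the ephrin receptor gene EPHA1 20.8 and 21.8 against 85.9. The gelatinase gene MMP2 had 159.8 and 138 CPM against 19.5, among 11 higher (33.3%) and 7 lower (21.2%) of 33 metalloproteinase and inhibitor genes. Of 9 tested germ cell genes 2 were higher (22.2%) and 3 lower (33.3%), and KIT, the receptor of germ cell precursors, had 19.4 and 20.1 CPM against 84.4.

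Among 29 Polycomb and histone methylation genes, 6 were higher (20.7%) and 8 lower (27.6%), beside 17.6% and 17.8% over all genes tested. JARID2, a partner of the repressive PRC2 complex, had 287 and 298 CPM in naive and 743 CPM in primed cells, whereas SMYD2, a lysine methyltransferase gene, had 85.05 and 86.3 against 22.9. The linker histone gene HIST1H1A had 19.7 and 14.9 CPM against 159, while 16 were higher (26.2%) and 4 lower (6.56%) of 61 replication-dependent histone genes. Replication-dependent histone transcripts largely lack the polyA tails used to select this RNA, and related histone genes share sequence. In the ATF4 response to amino acid stress 5 of 27 genes were higher (18.5%) and 8 lower (29.6%), with the amino acid transporter gene SLC7A5 at 430.3 and 416 CPM against 156 and the secreted glycoprotein gene STC2 at 85.97 and 79.1 against 182.

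Whether the state effect in RH5 differed from that in RH6 was tested as an interaction, and 2383 genes (12.9%) were called. DESeq2 called 1298. The comparisons of the 2 lines share no library. In RH5 PEG3 fell while in RH6 it stood at 16.8 and 19.1 CPM in naive and 0.3998 CPM in primed cells, a difference of -8.78 ± 0.297 (SE, adjusted p = 1.00e-06) between the log2 fold changes. The 4 naive libraries thus held PEG3 at 16.8 to 19.1 CPM, and the primed libraries stood at 188 and 0.3998 CPM. LEFTY2 rose less in RH5, with 58.5 CPM in primed RH5 against 6.596 in primed RH6, and the difference was -4.28 ± 0.18 (adjusted p = 2.02e-06). NANOG (-1.28), NODAL (-1.77), LEFTY1 (-1.66), T (-2.49) and NR5A2 (-1.92) also had smaller effects in RH5, with that of T lost with limma-voom (adjusted p = 0.0674), and OTX2 (-1.301) and ZIC2 (-1.19) fell further in RH5. Endoderm genes differed for 11 of 15 genes, with a median of 1.67 in RH6 against -2.38 in RH5. These 15 were filtered on the RH5 libraries alone, and HHEX and SOX17 passed only through primed RH5. The medians of the lines are therefore not on equal terms.

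Among genes with 10 CPM or more in a library of each line, the largest differences with a higher effect in RH5 included those of TFAP2B and MAP2. TFAP2B, a neural crest factor gene, had 21.03 and 21.5 CPM in naive and 3.58 CPM in primed RH5 cells, and 0.8396, 0.598 and 11.7 CPM in naive 1, naive 2 and primed RH6. Its difference was 6.57 ± 0.35 (adjusted p = 5.68e-06). MAP2, a neuronal microtubule gene, had 38.3 and 36.96 CPM against 15.9 in RH5 and 2.52 and 2.39 against 53.3 in RH6, so it rose in one line and fell in the other. EGR3 (5.36) and EGR2 (5.02), immediate early genes, rose in RH5 and had log2 fold changes of -1.98 and -3.38 in RH6. For genes at 0 in both primed libraries, such as KLF17, TRIM43 and HOXA3, the difference cannot be estimated, so their adjusted p of 1 carries no information.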

How the data were processed

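The naive and primed RH5 libraries, with the 3 RH6 libraries in the same fit, were analysed from whole-number gene counts that the authors deposited as one unnormalized table, with no column left out. STAR 2.4.0a and featureCounts 1.4.5-p1 are listed in the submitters' processing notes; strand setting and annotation release: not given in the sources used here. The libraries held 13457979 to 14663982 counts.

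CPM of each library was computed from the counts, and genes with 1 CPM or more in at least 1 of the 3 RH5 libraries were tested. The filter used plain CPM, and printed CPM use library sizes scaled by TMM factors. edgeR 4.0.16 (R 4.3.3) fitted 1 mean per group over the 6 libraries, with 2 residual degrees of freedom, and the quasi-likelihood test compared naive with primed RH5. Adjusted p-values are Benjamini-Hochberg over all 18516 genes, and a gene is called under 0.05. The spread of the single primed library is taken from the naive duplicates. The difference between lines was the interaction contrast. The script was tested on simulated data.

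Genes are named whatever their result (30 genes), for the 20 largest rises and falls, for up to 4 called genes of each list with 5 CPM or more, and for the 10 largest line differences each way; further members and neighbours were named as examples after their values were seen. Some genes that these rules name are not reported here. The members, lists and tests were chosen with earlier results of these data known. Lists are described by counts and medians, with no test of their own. A gene at 0 counts in a state is compared with a floor of 3 counts over that group. Counting intervals (95%, exact) and floors cover counting error only, and reads without molecular identifiers are not independent molecules. Chromosome and gene order come from RefSeq (GRCh38.p14), in which 14304 of 18516 genes matched; XIST and TSIX were left out of the X chromosome values. Alternatives were RLE and upper-quartile factors, DESeq2 1.42.0, limma-voom (limma 3.58.1), other count filters, each naive library left out, a replicate block and the RH5 libraries alone.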

Additional observations from a re-analysis of the deposited data

Results flagged for a closer look

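The state effect differed between RH5 and RH6 in 2383 genes, by edgeR's test of the difference itself. In log2 units, as the RH5 effect minus the RH6 effect, the effect was higher in RH5 for TFAP2B (6.57), MAP2 (5.68), LMX1B (5.53), DLK1 (5.41), EGR3 (5.36), CRABP1 (5.17), EGR2 (5.02), HTR1D (4.87) and BOC (4.76), which were among the 10 largest for genes with 10 CPM or more in a library of each line. It was lower in RH5 for PEG3 (-8.78), ZNF736 (-6.68), CST1 (-6.15), ZNF69 (-6.11), ZNF844 (-5.71), RP11-400N13.2 (-5.14), ATP8A2 (-4.89), CTD-2006C1.2 (-4.50), CTD-2311M21.2 (-4.41) and LEFTY2 (-4.28).

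Among the genes named whatever their result, the difference was also called for NANOG (-1.28), ZIC2 (-1.19), OTX2 (-1.30), NR5A2 (-1.92), NODAL (-1.77), LEFTY1 (-1.66), T (-2.49), SMAD7 (0.78), IGF2 (2.23) and MEG3 (1.05). Of these, T was not called with limma-voom and IGF2 not with DESeq2 or limma-voom. Line, passage and the history of each culture changed together and cannot be told apart.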

How the results depend on the processing

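DESeq2 called 3951 genes, 2102 higher and 1849 lower, and 1298 differences between the lines. The 5 CPM filter left 2286 genes with at least 2-fold changes; fewer genes were tested there. Leaving out 1 naive library at a time gave 5934 to 7610 called genes, 3006 to 3828 higher, 2928 to 3782 lower, 3592 to 3786 at least 2-fold and 2482 to 3440 differences between the lines; without a naive RH5 library the lone sample is assumed to vary like the other groups. With the replicate block, the number of the naive libraries as a term, 8756 genes and 4906 differences were called; the labels do not say that a number marks a shared culture or day. Leaving out a library turned directions, with values from -0.16 to 0.077 for POU5F1 and -0.044 to 0.021 for B2M, and for line differences from -0.19 to 0.33 for RARA, -0.29 to 0.071 for H19 and -0.23 to 0.038 for LIN28A. Upper-quartile factors turned NANOG (-0.024) and YAP1 (-0.029); none of these was called, and the cause was not tested. Of 544 named genes called, 424 kept direction and call under all 13 alternatives. SMAD2, COL1A1 and KLF4, not called, were called lower in the fit of the RH5 libraries alone (adjusted p = 0.0266, 0.0269 and 0.0435), without either naive RH6 library and with the replicate block. The median of 10 of 46 lists changed sign, among them BMP signalling (-0.029) and TGF-beta and nodal signalling (-0.035) with upper-quartile factors. The X chromosome median, followed after seeing the data, stayed between 0.67 and 0.77. Of genes under 5 CPM 23.7% were called, and 43.6% at 100 CPM or more; the median difference between the duplicates was 0.37 and 0.09 on the log2 scale, and the part of depth was not tested.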
